A study of Homo sapiens with 18 samples.

Results

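Expression of 9 amino acid transporter genes was followed in MCF10A cells, a non-tumorigenic human breast epithelial line, and in hTERT RPE-1 cells, a human retinal pigment epithelial line immortalised with telomerase. The genes are SLC7A5, SLC3A2, SLC7A1, SLC7A2, SLC7A6, SLC38A1, SLC38A2, SLC1A4 and SLC1A5, and they were chosen by symbol. In MCF10A all 9 were found among the 15358 genes listed, and in hTERT RPE-1 all except SLC7A2 were found among the 15257 genes listed, which leaves 8. Every listed member passed the filter on low values, which kept a gene that reached 10 in 3 or more of a line's 9 libraries. Each line was transfected with a non-targeting siRNA (siNT, the negative control), with an hsa-miR-28-5p mimic (miR-28 from here on) or with an hsa-miR-708-5p mimic (miR-708), each at 30 nM for 72 h. Each of the 6 groups had 3 biological replicates, numbered 7 to 9 in MCF10A and 1 to 3 in hTERT RPE-1, so 18 libraries of polyadenylated RNA were compared. Both lines are cultures of a single line each, every library comes from transfected cells, and siNT is a small interfering RNA rather than a microRNA mimic. SLC7A5 is labelled by the study as a target of both mimics, from a separate experiment in MCF10A cells that captured microRNAs joined to their target RNAs.

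Cells import the amino acids they cannot make, and exchange the ones they can, through families of solute carriers. SLC7A5 (LAT1) is a light chain that moves leucine and other large neutral amino acids in exchange for glutamine, and it needs the single-pass glycoprotein SLC3A2 (4F2hc, CD98) as a heavy chain to reach the plasma membrane. Glutamine for that exchange is brought in by SLC1A5 and by the sodium-coupled SLC38A1 and SLC38A2, and the leucine carried inward is one of the signals that activate mTORC1. A microRNA pairs with its targets mainly through its seed, bases 2 to 8, and matches in a 3′ UTR usually lower the level of the messenger RNA.

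Both mimics carry members of the miR-28 family, whose seed is AGGAGCU. The mature hsa-miR-708-5p sequence of RefSeq (GRCh38.p14, chr11:79402077-79402099, minus strand) is shown with that seed in capitals, because every site searched for is its complement.
hsa-miR-708-5p: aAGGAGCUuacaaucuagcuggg
Matches on the transcript strand were sought as AGCTCCT (a 7mer that pairs with bases 2 to 8), as GCTCCTA (a 7mer with an A opposite base 1) and as GCTCCT, the 6mer within both, in 1 GENCODE 44 transcript per gene. A 3′ UTR 7mer was present in 4 of the 9 members, and 6 of 9 had at least a 6mer there. Among the genes tested in MCF10A that could be matched to a transcript (12931, 87.8%), the shares were 18.6% with a 3′ UTR 7mer and 35.6% with a 6mer or longer. The 4 members with a 7mer have 3′ UTRs of 2923 to 5907 bases. The shares were not matched for 3′ UTR length, so no excess of 7mers or 6mers is read from them. The windows that hold these 7mers are printed at 30 bases each from hg38, because they are the sites a shared seed could pair with, with the match in capitals and in the direction of transcription.
SLC7A5 3′ UTR: gctggggtgggAGCTCCTccgcagaaggtt
SLC7A1 3′ UTR: ctgatgataccAGCTCCTccctgccgtgcc
SLC38A1 3′ UTR: gtctgacttttgGCTCCTAtggttcatctc
SLC38A2 3′ UTR, first site: aaatttgcatgAGCTCCTggaaagagttgc
SLC38A2 3′ UTR, second site: taatgtgaggaAGCTCCTccaatcctctgg
The SLC7A5 site lies at chr16:87830665-87830671 in exon 10 of 10, the SLC7A1 site at chr13:29511066-29511072 in exon 13 of 13 and the SLC38A1 site at chr12:46185652-46185658 in exon 17 of 17. The SLC38A2 sites lie at chr12:46359170-46359176 and chr12:46359006-46359012, both in exon 16 of 16. SLC7A5 was the only member with a 7mer in its coding sequence, where it had 2.
SLC7A5 coding sequence, exon 2: tgccgccgccaAGCTCCTggccctggccct
SLC7A5 coding sequence, exon 7: gatccacccacAGCTCCTcacccccgtgcc
These lie at chr16:87851771-87851777 and chr16:87837873-87837879. SLC1A5 had no match in its 3′ UTR, and its 8mer lies in the 5′ UTR of exon 1 (chr19:46788247-46788254).
SLC1A5 5′ UTR: ctcgtattcccAGCTCCTAgggccaaggaa
SLC3A2 and SLC1A4 had no match in their 3′ UTRs, with a single 6mer each, in the coding sequence of SLC3A2 and in the 5′ UTR of SLC1A4. SLC7A2 and SLC7A6 had 1 6mer each in the 3′ UTR. A match is a string of letters and was not tested as a binding site in these libraries.

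Depth was estimated from the spacing of low values. By that estimate the MCF10A libraries held 19.4 M to 31.7 M reads assigned to genes and those of hTERT RPE-1 23.8 M to 40.3 M. On the same estimate 3 reads corresponded to values of 2.36 to 4.41, a floor that covers counting error only. All members lay far above it. RPS28, looked at once as a check on the mimics, changed by -2.79 and -2.65 on the log2 scale in MCF10A with miR-28 and miR-708, and by -4.47 and -4.40 in hTERT RPE-1. All 8 breast basal epithelial markers were listed in MCF10A. Their summed value was 168668 to 181402 with siNT, 110186 to 122047 with miR-28 and 86002 to 107159 with miR-708. In hTERT RPE-1, 7 of 10 retinal pigment epithelium markers were listed, RPE65, TYR and TTR were not, and the sum was 2943 to 4291, 1951 to 2071 and 2110 to 2268. Of 6 haematopoietic markers 2 were listed in hTERT RPE-1, with sums of 326 to 458, 527 to 3725 and 4795 to 7237. CD68 gave nearly all of it, since PTPRC had a mean of 7.01, 6.98 and 6.27, and CD3E, CD79A, LYZ and HBB were not listed. In MCF10A 2 of the 6 were listed, with sums of 190 to 230, 240 to 318 and 519 to 747. Of 6 mesenchymal markers, 5 were listed in MCF10A, with sums of 23839 to 40980, 22320 to 65464 and 38363 to 88459, and 6 in hTERT RPE-1, with sums of 1241190 to 1972060, 1435110 to 1844590 and 930017 to 1073010. What these shifts contribute to the changes of the transporters was not tested, and in bulk libraries fewer cells of a type and less RNA per cell cannot be told apart. In hTERT RPE-1, siNT replicate 3 stood apart by its pigment genes, with PMEL at 544 and TYRP1 at 561, where PMEL reached 13.8 and TYRP1 12.2 in the other libraries. In the same line, miR-28 replicate 1 had 16.7% of its value on ribosomal RNA genes against 4.84% to 7.88% in the others. In MCF10A, siNT replicate 8 had the lowest value of the 3 siNT libraries for 8 of 9 members.

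Changes were tested with limma on log2(value + 1), a value being the estimated read count divided by the size factor of its library, and a gene was called where the p-value adjusted by Benjamini-Hochberg over all genes tested was below 0.05. In MCF10A, 4 of 9 members were called lower with miR-28 and none higher, where 12% of all genes tested were called lower and 10.7% higher. With miR-708, 6 of 9 were called lower and none higher, beside 17.3% and 15.5% of all genes. In hTERT RPE-1, 2 of 8 members were called lower and 2 higher with miR-28, near the background of 23.5% and 23.3%. With miR-708, 5 of 8 were called lower and 1 higher, beside 31.2% and 30.9%. SLC7A5 and SLC7A1 were called lower with both mimics in both lines, and SLC3A2 was called lower with both mimics in MCF10A and higher with both in hTERT RPE-1. With miR-28 named first, the members had a median log2 fold change of -0.72 and -0.57 (MCF10A) or 0.05 and -0.45 (hTERT RPE-1), where the median over all genes was between -0.005 and 0.006. In a single comparison of 3 against 3 libraries the smallest p that an exact permutation test can give is 0.1, so the tests rest on the spread shared across genes.

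**Figure D1:**
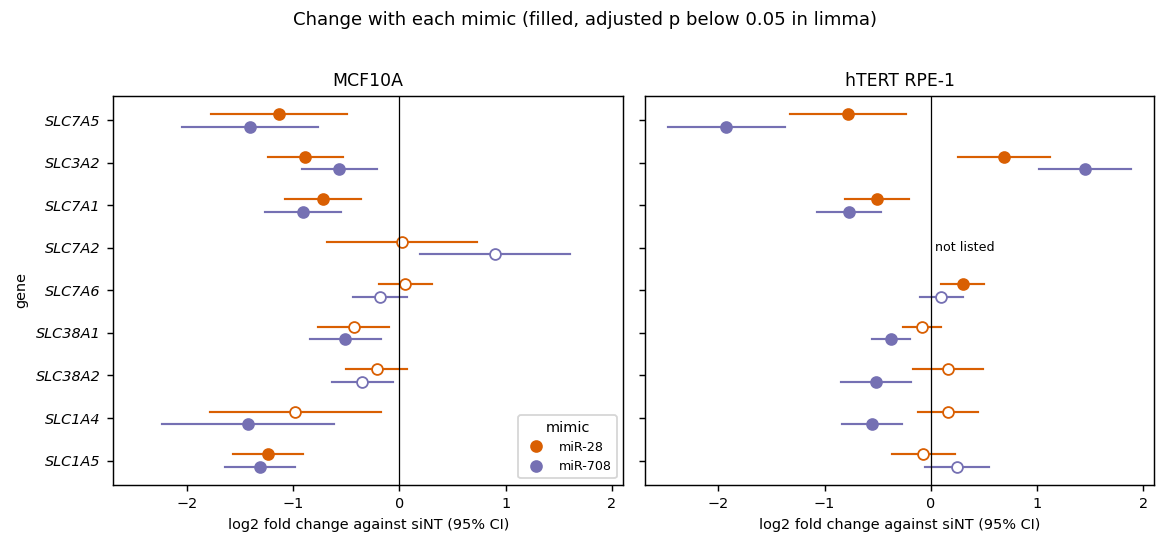
Log2 fold change of each transporter gene against siNT (x axis, with its 95% confidence interval) in MCF10A on the left and hTERT RPE-1 on the right; orange points stand for miR-28, violet points for miR-708 and filled points for genes called by limma. SLC7A5 and SLC7A1 lie left of 0 in both lines, and SLC3A2 lies left of 0 in MCF10A and right of 0 in hTERT RPE-1.

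Without siNT replicate 8, 6 members were called lower with miR-28 in MCF10A, and 7 lower and 1 higher with miR-708, while over all 14726 genes the calls went down to 1140 lower and 975 higher with miR-28, and to 1967 and 1771 with miR-708. The MCF10A numbers were taken to pair the libraries of each mimic with those of siNT. With the replicate as a block the same counts resulted, 6 lower with miR-28, and 7 lower and 1 higher with miR-708. There the calls over all genes went up, to 2279 lower and 2129 higher with miR-28, and to 2999 and 2819 with miR-708. Without siNT replicate 7 or siNT replicate 9, 3 members were called with miR-708, all lower, beside 1955 and 1899 genes called lower over all. In hTERT RPE-1 without siNT replicate 3, 2 members were called lower and none higher with miR-28, and 5 lower and 1 higher with miR-708. Without siNT replicate 1, 2 members were called with miR-28, and without miR-28 replicate 1 there were 1 lower and 2 higher. Over all 14527 genes the calls with miR-28 were then 3289 lower and 3306 higher without siNT replicate 3, 2757 and 2736 without siNT replicate 1, and 3306 and 3252 without miR-28 replicate 1.

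SLC7A5 (chr16:87830023-87869508, minus strand) fell with both mimics in both lines, and it fell most with miR-708 in hTERT RPE-1. In MCF10A its values were 23224, 12023 and 18078 with siNT, 10894, 6458 and 6870 with miR-28, and 9890, 5413 and 5114 with miR-708. All 6 mimic libraries lay under all 3 siNT libraries, and replicate 7 was the highest of each group. On the log2 scale the change was -1.13 ± 0.29 (SE) with miR-28 (limma, adjusted p = 0.0185), a mean 2.20-fold lower, and -1.40 ± 0.29 with miR-708 (adjusted p = 0.00406), a mean 2.61-fold lower. In hTERT RPE-1 the values were 8539, 10240 and 5488 with siNT, 3214, 6031 and 4916 with miR-28, and 1971, 2345 and 1899 with miR-708. The miR-708 libraries lay under every other library of the line, while miR-28 replicate 2 lay above siNT replicate 3. The change was -0.78 ± 0.25 with miR-28 (adjusted p = 0.0251) and -1.92 ± 0.25 with miR-708 (adjusted p = 7.00e-05), where the mean was 3.90-fold lower. In this fit, which leaves out the replicate number, the call with miR-28 was not kept in every alternative run. It was lost in MCF10A without siNT replicate 7, siNT replicate 9, miR-28 replicate 8 or miR-28 replicate 9 (adjusted p of 0.0575 to 0.0738), or with the spread moderated without a trend (0.0558). In hTERT RPE-1 it was lost without siNT replicate 1 (0.0791), siNT replicate 2 (0.101) or miR-28 replicate 1 (0.0668), or without a trend (0.0527). With 1 library left out the log2 fold change ran from -1.385 to -0.91 in MCF10A and from -1.03 to -0.52 in hTERT RPE-1. Calls over all genes went down too, to 1082 to 1232 lower in the MCF10A runs without a library that lost the call, against 1772. With the replicate as a block the SE in MCF10A was 0.13 and the call with miR-28 was kept (limma, adjusted p = 4.98e-05). The block kept it in hTERT RPE-1 too (0.00894), but same-numbered libraries of that comparison correlated by only 0.02 to 0.04, so numbers were not taken to pair them. The calls with miR-708 were kept in both lines under each alternative run, left-out libraries included.

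**Figure D2:**
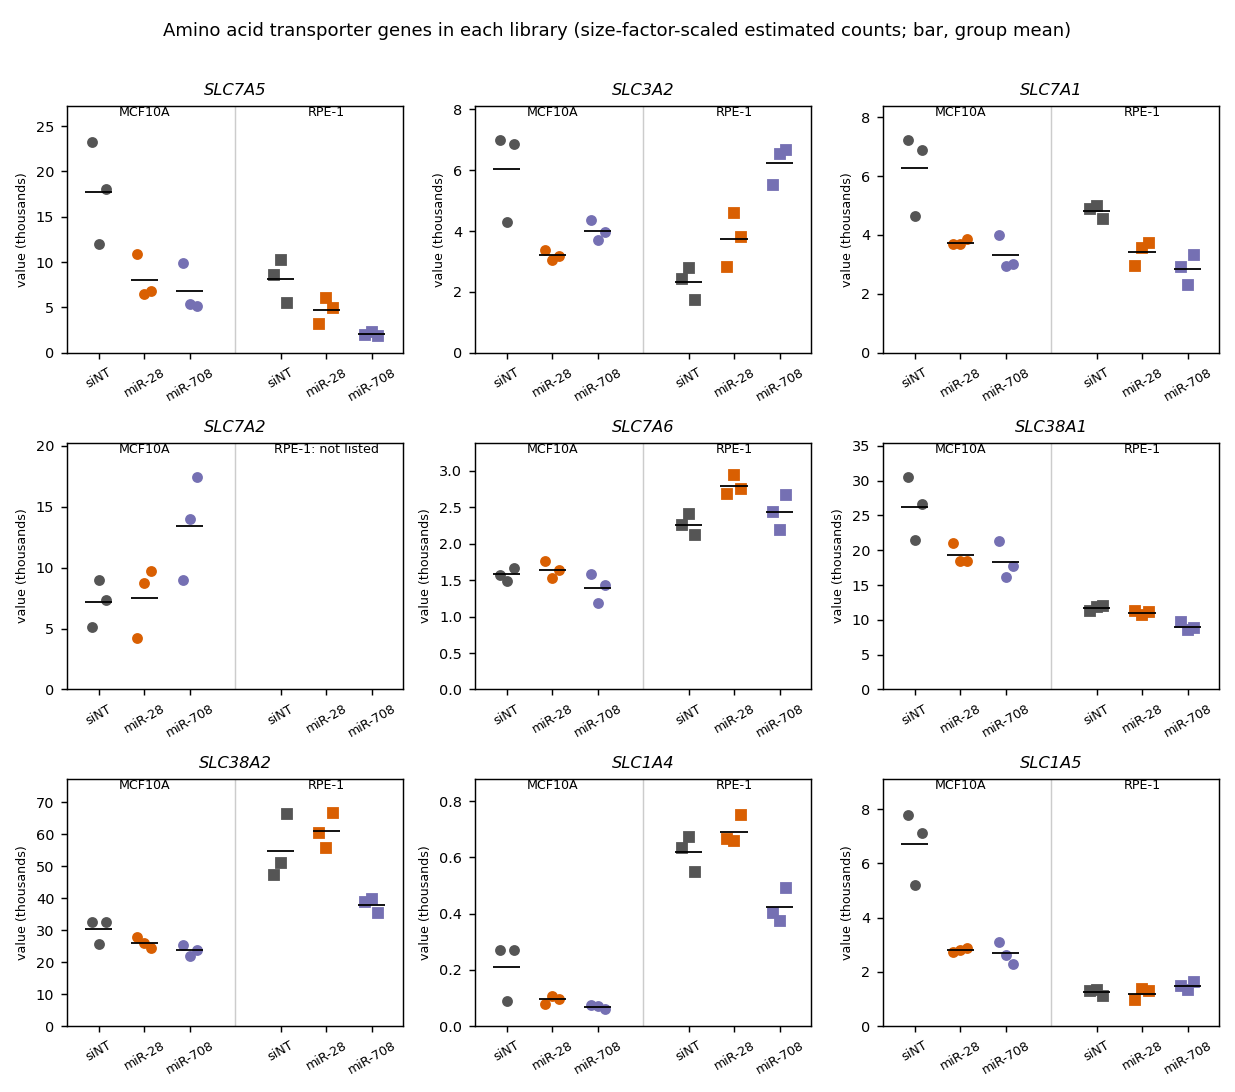
Value of each transporter gene in every library (y axis, size-factor-scaled estimated counts, from 0), with MCF10A as circles on the left of each panel and hTERT RPE-1 as squares on the right, and with a bar for the mean of 3 libraries. SLC7A5 and SLC7A1 step down from siNT to the mimics in both lines, while SLC3A2 steps down in MCF10A and up in hTERT RPE-1.

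A pseudogene of SLC7A5, SLC7A5P2, shares 18.5% of its 437 stretches of 100 bases with the parent transcript, so reads could be split between them. Its value reached 305 at most in MCF10A and 105 in hTERT RPE-1, a small part of that of SLC7A5, and limma called it in none of the comparisons with siNT, where its adjusted p was 0.103 to 0.849. The counting was not stated to use strand, and SLC7A5 shares 271 exonic bases with a long non-coding RNA on the other strand.

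SLC3A2 (chr11:62856109-62888861, plus strand), the heavy chain that SLC7A5 and SLC7A6 share, fell in MCF10A and rose in hTERT RPE-1. In MCF10A its values were 6980, 4312 and 6865 with siNT, 3376, 3057 and 3189 with miR-28, and 4354, 3697 and 3960 with miR-708. The miR-28 libraries lay under all siNT libraries, and with miR-708 only replicate 7 reached above the lowest siNT library. The log2 fold change was -0.88 ± 0.16 (SE) with miR-28 (limma, adjusted p = 0.00372) and -0.57 ± 0.16 with miR-708 (adjusted p = 0.0198). In hTERT RPE-1 the values were 2424, 2778 and 1736 with siNT, 2807, 4594 and 3812 with miR-28, and 5522, 6520 and 6664 with miR-708. The 3 groups did not overlap, with siNT lowest and miR-708 highest. This rise was 0.69 ± 0.20 on the log2 scale with miR-28 (adjusted p = 0.0147) and 1.45 ± 0.20 with miR-708 (adjusted p = 9.79e-05), a mean 2.70-fold higher. Without siNT replicate 3 the rise with miR-28 was no longer called (log2 fold change 0.50, adjusted p = 0.0548), while that with miR-708 was. In MCF10A the fall with miR-708 was no longer called without siNT replicate 7 or 9 or without miR-708 replicate 8 or 9 (adjusted p of 0.0591 to 0.0822), nor when values were scaled to the library total (0.0640) or when the spread was moderated without a trend (0.0524). With the replicate as a block that fall was called (0.00231).

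The opposite movement of the chains showed in the ratio of the SLC7A5 value to the SLC3A2 value, each divided by its transcript length. In hTERT RPE-1 this ratio was 1.46, 1.53 and 1.31 with siNT, 0.474, 0.543 and 0.534 with miR-28, and 0.148, 0.149 and 0.118 with miR-708. The 3 groups did not overlap, with siNT highest and miR-708 lowest. In MCF10A it was 1.38, 1.15 and 1.09 with siNT, 1.34, 0.874 and 0.891 with miR-28, and 0.940, 0.606 and 0.534 with miR-708. There the siNT and miR-28 libraries overlapped, although within each replicate number miR-28 lay under siNT, and all miR-708 libraries lay under all siNT libraries.

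**Figure D3:**
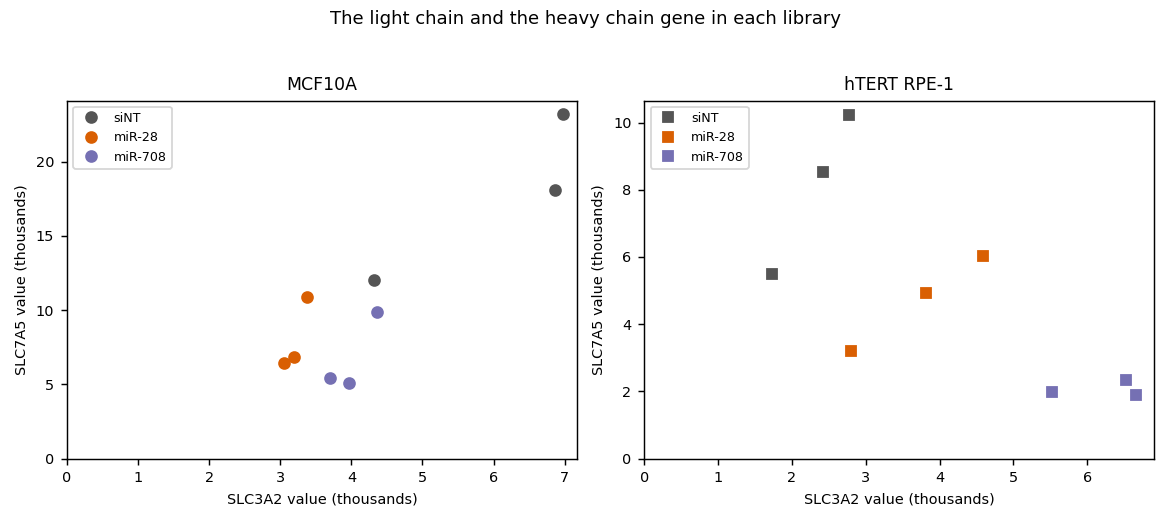
Value of SLC7A5 (y axis) against that of SLC3A2 (x axis), in size-factor-scaled estimated counts, in each library, both axes from 0, for MCF10A on the left and hTERT RPE-1 on the right, coloured by treatment. In MCF10A 2 of the 3 siNT libraries lie at the upper right, apart from all mimic libraries, and in hTERT RPE-1 the libraries run from the upper left with siNT to the lower right with miR-708.

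SLC7A1 (CAT1, chr13:29509414-29595689, minus strand), the widespread importer of arginine and lysine, fell with both mimics in both lines. In MCF10A its values were 7233, 4657 and 6898 with siNT, 3691, 3679 and 3858 with miR-28, and 3983, 2943 and 3008 with miR-708. No mimic library reached the lowest siNT library. The fall was -0.72 ± 0.16 (SE) on the log2 scale with miR-28 (limma, adjusted p = 0.0106) and -0.91 ± 0.16 with miR-708 (adjusted p = 0.00187). The values of hTERT RPE-1 were 4873, 4987 and 4552 with siNT, 2933, 3572 and 3713 with miR-28, and 2922, 2294 and 3332 with miR-708. Again all mimic libraries lay under all siNT libraries, and the log2 fold changes were -0.50 ± 0.14 (adjusted p = 0.0115) and -0.77 ± 0.14 (adjusted p = 0.000607). These 4 calls were kept under each alternative run.

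SLC7A2, another cationic amino acid transporter, on chromosome 8, was listed in MCF10A alone. Its values were 5119, 9004 and 7324 with siNT, 4202, 8720 and 9701 with miR-28, and 8982, 13947 and 17422 with miR-708. Replicate 7 was the lowest of each group, and the miR-708 libraries lay above siNT within each number while the groups overlapped slightly. Its log2 fold change was 0.02 ± 0.32 (SE) with miR-28 (limma, adjusted p = 0.964) and 0.90 ± 0.32 with miR-708 (adjusted p = 0.0517). With the replicate as a block the latter was called (adjusted p = 0.000179), in the direction opposite to SLC7A1. It was also called under library total scaling (0.0310), upper quartile scaling (0.0471), a fit to the 2 groups alone (0.0254) and without siNT replicate 8 (0.0483), miR-28 replicate 7 (0.0144), miR-28 replicate 9 (0.0474) or miR-708 replicate 7 (0.0193).

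SLC7A6 (y+LAT2, chr16:68264526-68301820, plus strand), is a light chain of SLC3A2 that exports cationic amino acids in exchange for neutral ones. Its values in MCF10A were 1573, 1495 and 1669 with siNT, 1761, 1531 and 1639 with miR-28, and 1583, 1185 and 1428 with miR-708. The groups overlapped, and neither mimic was called (log2 fold changes of 0.06 and -0.18). The hTERT RPE-1 libraries gave 2260, 2408 and 2122 with siNT, 2677, 2938 and 2745 with miR-28, and 2442, 2186 and 2665 with miR-708. With miR-28 all libraries lay above siNT and the gene was called higher, by 0.30 ± 0.09 (SE) on the log2 scale (limma, adjusted p = 0.0212). That call was lost without siNT replicate 1, siNT replicate 3 or miR-28 replicate 2 (adjusted p of 0.0582 to 0.0622). With miR-708 it was 0.10 ± 0.09 (adjusted p = 0.365), and 0.42 (0.00249) when values were scaled to the library total. SLC7A6 shares 3372 exonic bases with SLC7A6OS on the other strand, so without strand their reads cannot be told apart.

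SLC38A1 (SNAT1, chr12:46183063-46269044, minus strand), a sodium-coupled carrier of glutamine and other small neutral amino acids, was called lower with miR-708 in both lines. In MCF10A its values were 30554, 21417 and 26698 with siNT, 21028, 18462 and 18467 with miR-28, and 21269, 16136 and 17726 with miR-708. All mimic libraries lay under all siNT libraries, although miR-28 replicate 7 and miR-708 replicate 7 came close to siNT replicate 8. The log2 change was -0.43 ± 0.15 (SE) with miR-28 (limma, adjusted p = 0.0637) and -0.51 ± 0.15 with miR-708 (adjusted p = 0.0248). With the replicate as a block the fall with miR-28 was called too (adjusted p = 0.0133), as it was without siNT replicate 8 (0.0342) or miR-708 replicate 7 (0.0382). The call with miR-708 was lost without siNT replicate 7, siNT replicate 9, miR-708 replicate 8 or miR-708 replicate 9 (0.0747 to 0.101), and under library total scaling (0.0719). It was kept with the replicate as a block (0.00350). Values of 11329, 11786 and 11969 with siNT, 11240, 10759 and 11141 with miR-28, and 9711, 8558 and 8812 with miR-708 were found in hTERT RPE-1. The miR-708 libraries lay under the rest, and miR-28 lay just under siNT. The changes were -0.08 ± 0.08 with miR-28 (adjusted p = 0.434) and -0.38 ± 0.08 with miR-708 (adjusted p = 0.00229).

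SLC38A2 (SNAT2, chr12:46358188-46372774, minus strand), a related carrier whose level is known to rise when amino acids are short, was called lower with miR-708 in hTERT RPE-1. There its values were 47061, 51036 and 66319 with siNT, 60464, 55647 and 66625 with miR-28, and 38640, 39670 and 35366 with miR-708. The miR-708 libraries lay under the other 6, and siNT and miR-28 overlapped. The log2 change was 0.16 ± 0.15 (SE) with miR-28 (limma, adjusted p = 0.389) and -0.52 ± 0.15 with miR-708 (adjusted p = 0.0110). In MCF10A the values were 32606, 25715 and 32506 with siNT, 27865, 25810 and 24414 with miR-28, and 25236, 22029 and 23712 with miR-708. With miR-708 the libraries lay under siNT by a small step, -0.35 ± 0.13 on the log2 scale (adjusted p = 0.0599), and with the replicate as a block this was called (0.0358). It was called as well without siNT replicate 8 (0.0296) or without 1 of the mimic libraries, miR-28 replicate 7 (0.0468) or miR-708 replicate 7 (0.0408). With miR-28 it was -0.21 ± 0.13 (adjusted p = 0.264).

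SLC1A4 (ASCT1, chr2:64988479-65023866, plus strand), an exchanger of alanine, serine and cysteine, was the least abundant member. In MCF10A its values were 269, 88.9 and 269 with siNT, 79.1, 108 and 97.6 with miR-28, and 76.6, 69.9 and 61.1 with miR-708. The siNT group was split, with replicate 8 inside the range of miR-28, and the miR-708 libraries lay under all siNT libraries. The fall was -0.98 ± 0.37 (SE) on the log2 scale with miR-28 (limma, adjusted p = 0.0773) and -1.42 ± 0.37 with miR-708 (adjusted p = 0.0128). With the replicate as a block the fall with miR-28 was called (0.0434), and without siNT replicate 8 it was -1.51 (0.00359). The call with miR-708 was lost without siNT replicate 7 (0.0542) or siNT replicate 9 (0.0577), and was kept with the replicate as a block (0.00491). In the other line the values were 635, 671 and 549 with siNT, 666, 657 and 749 with miR-28, and 401, 375 and 490 with miR-708. There miR-708 lay under the other groups, which overlapped. The log2 change was 0.16 ± 0.13 with miR-28 (adjusted p = 0.315) and -0.55 ± 0.13 with miR-708 (adjusted p = 0.00303).

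SLC1A5 (ASCT2, chr19:46774883-46788595, minus strand), the main sodium-dependent glutamine exchanger of many proliferating cells, fell in MCF10A alone. Its values there were 7789, 5187 and 7119 with siNT, 2728, 2789 and 2891 with miR-28, and 3110, 2634 and 2303 with miR-708. The lowest siNT library lay well above every mimic library. The fall was -1.24 ± 0.15 (SE) on the log2 scale with miR-28 (limma, adjusted p = 0.000470) and -1.31 ± 0.15 with miR-708 (adjusted p = 0.000131), means 2.39-fold and 2.50-fold lower. In hTERT RPE-1 its values were 1289, 1338 and 1121 with siNT, 962, 1352 and 1285 with miR-28, and 1488, 1347 and 1615 with miR-708. The miR-28 group overlapped siNT, and miR-708 lay just above it. Its log2 change was -0.07 ± 0.13 with miR-28 (adjusted p = 0.695) and 0.25 ± 0.13 with miR-708 (adjusted p = 0.132). The call in MCF10A was kept under each alternative run. SLC1A5 shares 780 exonic bases with a long non-coding RNA on the other strand.

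Several hTERT RPE-1 fold changes with miR-708 depended on the scaling. When values were scaled to the library total, the median over all genes tested moved to 0.32 with miR-708 and to 0.09 with miR-28, and in MCF10A to 0.14 and 0.12. Of all genes tested in hTERT RPE-1 with miR-708, 2660 were then called lower and 6778 higher, against 4538 and 4486 as deposited. With miR-28 the split was 2711 and 3959, against 3407 and 3391, and in MCF10A it was 1163 and 2272 with miR-28, against 1772 and 1575, and 1622 and 3379 with miR-708, against 2549 and 2286. SLC38A1 (-0.06, adjusted p = 0.598), SLC38A2 (-0.20, 0.294) and SLC1A4 (-0.24, 0.122) were no longer called by limma with miR-708 in hTERT RPE-1, and SLC1A5 (0.57, 0.00561) and SLC7A6 (0.42, 0.00249) were called higher. The calls of SLC7A5, SLC7A1 and SLC3A2 in that line stood under both scalings.

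The mimics were then set against each other, in the same fits, so that the siNT libraries enter the estimate of the spread but not the difference itself. In MCF10A limma called no member, beside 1.55% of all genes tested (228, with 2320 at an unadjusted p under 0.05). With the replicate as a block SLC7A2 was called higher with miR-708 (0.87, adjusted p = 0.00157), beside 214 genes lower and 429 higher over all. The differences (miR-708 minus miR-28) ranged from -0.44 for SLC1A4 to 0.87 for SLC7A2, and for SLC7A5 the difference was -0.27 with a 95% confidence interval of -0.91 to 0.37. That interval is from the fit without the block, where the SE was 0.29. With the block the SE was 0.13, and SLC7A5 was still not called (limma, adjusted p = 0.240). In hTERT RPE-1, 5 of 8 members were called, beside 21.2% of all genes. SLC7A5 was lower with miR-708 than with miR-28 by -1.15 ± 0.25 (SE) on the log2 scale (limma, adjusted p = 0.00974), a mean 2.28-fold lower. SLC38A1 (-0.29, 0.0284), SLC38A2 (-0.68, 0.0101) and SLC1A4 (-0.72, 0.00393) were lower too, and SLC3A2 was higher (0.76, 0.0209). SLC7A1 (-0.27, 0.188), SLC7A6 (-0.20, 0.148) and SLC1A5 (0.32, 0.118) did not pass. Without miR-28 replicate 1, 3 members were called lower and none higher, since SLC3A2 (0.57, 0.0520) and SLC38A1 (0.0710) were lost. Both were also lost without miR-28 replicate 3 and without miR-708 replicate 2, which left 3 members called, and without miR-708 replicate 3, which lost SLC38A2 too (0.0504) and left 2. SLC38A1 was lost as well in a fit to the 2 groups alone (0.0585), and under library total scaling SLC38A1 (0.626) and SLC38A2 (0.0519) were lost while SLC1A5 was gained (0.55, 0.0169). That scaling gave 707 genes lower and 3943 higher in this comparison, against 1649 and 1435 as deposited. The numbers were taken to pair these hTERT RPE-1 libraries, and the replicate block left 5 members called.

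Whether the lines differed in their response was tested over the 13339 genes tested in both, as the log2 fold change of hTERT RPE-1 minus that of MCF10A. With miR-28, 3 of 8 members were called, beside 23.4% of genes, and with miR-708 2 of 8, beside 39.8%. The difference for SLC3A2 was 1.57 ± 0.25 (SE) with miR-28 (limma, adjusted p = 0.000235) and 2.02 ± 0.25 with miR-708 (adjusted p = 4.22e-06). For SLC1A5 it was 1.17 ± 0.20 (adjusted p = 0.000372) and 1.56 ± 0.20 (4.42e-06). For SLC1A4 it was 1.14 ± 0.39 with miR-28 (0.0477), close to the threshold, and 0.87 ± 0.39 with miR-708 (0.0921). The SLC1A4 call was lost with any 1 of 12 of the 18 libraries left out and under 4 other settings, and without MCF10A siNT replicate 7 or 9 the difference was 0.88 (0.161 and 0.169). With miR-708 it was 1.40 and called without MCF10A siNT replicate 8 (0.000683). For SLC7A5 the difference was 0.35 with miR-28, with a 95% confidence interval of -0.44 to 1.15, and -0.52 with miR-708, with an interval of -1.32 to 0.27. For SLC7A1 it was 0.21 (-0.23 to 0.66) and 0.14 (-0.30 to 0.58). Neither gene passed, and the intervals for SLC7A5 are wide. They come from fits without the block, where the SE for SLC7A5 was 0.38. With the replicate as a block in both lines it was 0.23, and SLC7A5 did not pass with miR-28 (limma, adjusted p = 0.271) or miR-708 (0.0751). SLC7A6, SLC38A1 and SLC38A2 did not pass either, with differences of 0.24, 0.35 and 0.38 with miR-28 and of 0.28, 0.13 and -0.17 with miR-708. Under library total scaling 4 members differed with miR-708, SLC1A4 (0.0471) and SLC7A6 (0.0161) being added.

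**Figure D4:**
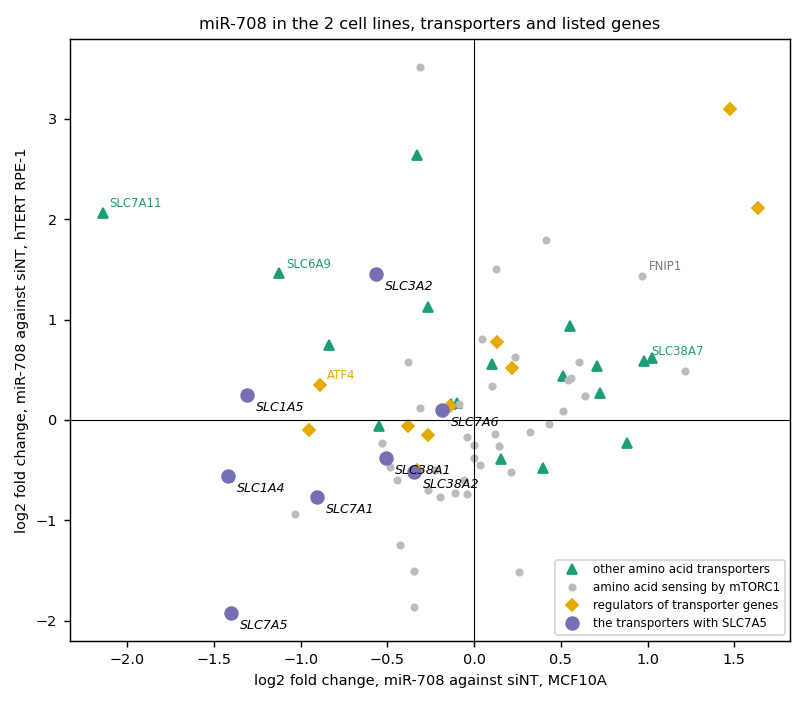
Log2 fold change with miR-708 against siNT in MCF10A (x axis) and in hTERT RPE-1 (y axis) for the 8 transporters tested in both lines and for the listed genes of 3 related groups, 1 point a gene. SLC7A5, SLC7A1, SLC38A1, SLC38A2 and SLC1A4 lie at lower left, and SLC3A2 lies at upper left with ATF4, SLC7A11 and SLC6A9.

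Of the members with a 3′ UTR 7mer, SLC7A5 and SLC7A1 were called lower in all 4 comparisons with siNT, SLC38A1 with miR-708 in both lines and SLC38A2 with miR-708 in hTERT RPE-1. Under library total scaling the SLC38A1 calls in both lines and the SLC38A2 call were lost. SLC1A5, which has no 3′ UTR match, had in MCF10A the fall with the smallest adjusted p among the members. SLC1A4, with no 3′ UTR match either, was called lower with miR-708 in both lines, as SLC38A1 was. Under library total scaling its call in hTERT RPE-1 was lost. SLC3A2, also without a 3′ UTR match, moved in opposite directions in the lines. How many of all genes with a 3′ UTR 7mer were called lower was not counted, and what the sites contribute was not tested.

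The other transporters of amino acids were taken from a list of 44 genes, of which MCF10A had 21 listed and 20 tested, and hTERT RPE-1 had 23 listed and 21 tested. In MCF10A 4 were called lower and 3 higher with miR-28, and 4 and 8 with miR-708, with medians of 0.22 and 0.23 on the log2 scale. In hTERT RPE-1 3 were called lower and 7 higher with miR-28, and 2 and 10 with miR-708, with medians of 0.40 and 0.44. Of all genes tested, 12% were called lower and 10.7% higher with miR-28 in MCF10A, and 17.3% and 15.5% with miR-708. For hTERT RPE-1 those shares were 23.5% and 23.3%, then 31.2% and 30.9%, and nothing particular to the list is read from its counts. SLC38A7, a lysosomal carrier of glutamine, was the only gene of the list called in the same direction in all 4 comparisons, with log2 fold changes of 0.77 and 0.98 (MCF10A) and of 0.49 and 0.59 (hTERT RPE-1). Its values were 352 to 415 with siNT, 583 to 734 with miR-28 and 628 to 847 with miR-708 in MCF10A. By the size of the mean log2 fold change the other examples were SLC38A3, SLC6A15, SLC6A14 and CTNS. SLC38A3, a system N carrier of glutamine and histidine, was tested in hTERT RPE-1 alone and changed by -1.38 and -2.53 on the log2 scale (limma, adjusted p = 0.00958 and 0.000138). SLC6A14, a carrier of neutral and cationic amino acids tested in MCF10A alone, had changes of 0.34 (0.531) and 1.10 (0.0365). CTNS, the lysosomal cystine exporter, rose by 0.86 and 0.71 in MCF10A (0.0287 and 0.0465) and by 0.54 with miR-708 in hTERT RPE-1 (0.00265), with 0.30 for miR-28 there (0.0623).

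A group of these genes, chosen after their values were seen, moved like SLC3A2, down in MCF10A and up in hTERT RPE-1. SLC7A11 (xCT), the cystine-glutamate exchanger that is also a light chain of SLC3A2, was at 1054 to 4068 with siNT, 429 to 719 with miR-28 and 468 to 629 with miR-708 in MCF10A, and at 299 to 565, 462 to 1531 and 1395 to 2648 in hTERT RPE-1. Its log2 fold change was -2.17 and -2.14 in MCF10A (limma, adjusted p = 0.00348 and 0.00197), and 0.89 and 2.06 in hTERT RPE-1 (0.0913 and 0.00109), so its rise with miR-28 was not called. The line difference was called with both mimics, 3.06 with miR-28 (0.000617) and 4.21 with miR-708 (6.25e-06). The glycine transporter SLC6A9 changed by -1.27 and -1.13 in MCF10A and by 1.16 and 1.46 in hTERT RPE-1, each called. SLC6A15, a carrier of branched-chain amino acids and proline, changed by -0.45 and -0.33 in MCF10A (0.00994 and 0.0280) and by 1.36 and 2.64 in hTERT RPE-1 (0.000702 and 4.18e-06).

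Regulators of transporter genes were a list of 10, all tested in both lines. With miR-28 4 were called lower in MCF10A, namely ATF4, MYC, EIF2AK1 and EIF2AK4, and the same 4 with miR-708, while 2 were called higher with miR-708 (DDIT3 and EIF2AK2). In hTERT RPE-1 EIF2AK1 was called lower with both mimics, and 4 and 5 genes were called higher. Over all genes, 12% and 17.3% were called lower in MCF10A, and 23.3% and 30.9% higher in hTERT RPE-1. Medians of the log2 fold change were -0.21 with either mimic in MCF10A, and 0.16 and 0.24 for hTERT RPE-1. EIF2AK1, the haem-regulated kinase of eIF2α, was the only one of the list called in the same direction in all 4 comparisons (-0.33, -0.33, -0.46 and -0.50). ATF4, the factor that binds amino acid response elements and drives transporter genes including SLC3A2 and SLC7A11, went down in MCF10A and up in hTERT RPE-1. It was singled out after its values were seen. Its value was 10116 to 13392 with siNT, 5244 to 6029 with miR-28 and 6192 to 6631 with miR-708 in MCF10A, and 6075 to 7819, 8060 to 10610 and 8464 to 9181 in hTERT RPE-1. The siNT libraries lay above all mimic libraries in MCF10A and below all of them in hTERT RPE-1. The log2 fold changes were -1.05 and -0.89 in MCF10A (limma, adjusted p = 0.000322 and 0.000271) and 0.45 and 0.35 in hTERT RPE-1 (0.0113 and 0.0259). Line differences in ATF4 were 1.503 (3.26e-06) and 1.24 (7.52e-06). In MCF10A, where ATF4 fell, 4 of 9 members were called lower with miR-28 and 6 of 9 with miR-708. None was called higher there in the fit without the block. Of the members called with both mimics in hTERT RPE-1, where ATF4 rose, SLC3A2 rose (0.69 and 1.45). SLC7A5 (-0.78 and -1.92) and SLC7A1 (-0.50 and -0.77) fell. What ATF4 contributes to these changes was not tested. By the size of the mean change DDIT3 and EIF2AK2, MYC and EPAS1 follow. DDIT3 (CHOP), a stress-induced factor downstream of ATF4, changed by 0.32 (0.476) and 1.47 (0.00405) in MCF10A and by 2.18 and 3.09 in hTERT RPE-1, both called. EIF2AK2 (PKR), the kinase of eIF2α that double-stranded RNA activates, changed by 0.24 (0.212) and 1.63 (1.36e-05) in MCF10A and by 1.97 and 2.11 in hTERT RPE-1, both called. MYC, known to drive SLC7A5 and SLC1A5, changed by -0.74 and -0.95 in MCF10A (0.00169 and 0.000186) and by -0.06 and -0.10 in hTERT RPE-1 (0.792 and 0.648). EPAS1, a hypoxia-inducible factor, changed by 0.14 and 0.22 in MCF10A (0.499 and 0.246) and by 0.79 and 0.52 in hTERT RPE-1 (0.00278 and 0.0180).

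The promoters of 8 members, all but SLC7A2, from 250 bases before to 50 after the RefSeq start on GRCh38.p14, were searched on both strands for the E-box CACGTG, which MYC can bind, and for TGATGNAA, the core of the amino acid response element. Of 27305 promoters 7.44% held the first and 3.67% the second. Among these 8 the E-box was found in SLC7A5 alone, 130 bases before the start, and the response element in SLC3A2, SLC7A1 and SLC38A1. Only this stretch around the RefSeq start was searched, so an element elsewhere in a gene, an intron included, would not be found. The bases around each match are shown because ATF4 and MYC themselves changed, with the match in capitals.
SLC7A5 promoter (chr16:87869620-87869649, minus strand): ggccggacgacgCACGTGctccgagctggg
SLC3A2 promoter (chr11:62881719-62881748, plus strand): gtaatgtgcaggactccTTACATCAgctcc
SLC7A1 promoter (chr13:29595663-29595692, minus strand): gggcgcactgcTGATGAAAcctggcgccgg
SLC38A1 promoter (chr12:46266502-46266531, minus strand): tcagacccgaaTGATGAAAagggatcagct
The element of SLC3A2 stands on the opposite strand, so it reads as its complement. Among members with a response element, SLC3A2 was called higher with both mimics in hTERT RPE-1, SLC7A1 lower with both and SLC38A1 lower with miR-708. In MCF10A SLC3A2 and SLC7A1 were called lower with both mimics, and SLC38A1 lower with miR-708. A match here is a description of the letters, and binding was not measured in these libraries.

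The list of genes that carry amino acid sufficiency to mTORC1 had 39 genes, all tested in both lines. In MCF10A 2 were called lower and 4 higher with miR-28, and 6 and 7 with miR-708. In hTERT RPE-1 12 were called lower and 9 higher with miR-28, and 16 and 12 with miR-708. These counts stand beside 12% lower and 10.7% higher (miR-28) and 17.3% and 15.5% (miR-708) of all genes in MCF10A, and beside 23.5% and 23.3%, and 31.2% and 30.9%, in hTERT RPE-1. The medians of the 4 comparisons lay between -0.17 and 0.001. The genes called the same way in all 4 were FNIP1 and FLCN, partners in the lysosomal complex that acts on Rag GTPases, which rose, and MTOR, the kinase itself, and SEH1L, a subunit of GATOR2, which fell. FNIP1 changed by 0.61 and 0.97 in MCF10A and by 1.14 and 1.44 in hTERT RPE-1, and FLCN by 1.03, 1.22, 0.54 and 0.48 in the same order. SEH1L changed by -0.80, -1.03, -0.82 and -0.93, and MTOR by -0.42, -0.49, -0.75 and -0.47. Large mean changes came from hTERT RPE-1 for SESN2, a leucine sensor (1.58 and 1.79), and CASTOR2, a relative of the arginine sensor (-1.59 and -1.86), each called there with both mimics and with neither in MCF10A. For both genes the line difference was called with both mimics. DEPTOR, an inhibitory partner of mTOR, had a mean value of 1.74 with siNT in hTERT RPE-1, under the value of 3 reads in those libraries (2.59 to 4.41), and of 27.3 and 30.3 with the mimics. It passed the filter there only through the mimic libraries, so no fold is given, and it is among the genes counted as higher.

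Levels were compared between members per length, as the value per kilobase of transcript. With siNT in MCF10A the order was SLC38A2 (6314 ± 824, SD, n = 3), SLC7A5 (3901 ± 1231), SLC38A1 (3239 ± 566), SLC3A2 (3211 ± 800), SLC1A5 (2324 ± 469), SLC7A2 (939 ± 256), SLC7A1 (853 ± 191), SLC7A6 (252 ± 13.9) and SLC1A4 (45.8 ± 22.8). On this scale SLC7A5, SLC38A1, SLC3A2 and SLC1A5 each overlapped their neighbour in the order over the 3 libraries, as did SLC7A2 and SLC7A1, and the other neighbours did not. In hTERT RPE-1 the order per kilobase was SLC38A2 (11430 ± 2120), SLC7A5 (1775 ± 528), SLC38A1 (1444 ± 40.7), SLC3A2 (1227 ± 281), SLC7A1 (654 ± 30.7), SLC1A5 (433 ± 39.4), SLC7A6 (362 ± 22.8) and SLC1A4 (135 ± 13.7), where SLC7A5, SLC38A1 and SLC3A2 overlapped their neighbours. With miR-708 SLC7A5 went from place 2 to place 5 on this scale in both lines, and SLC3A2 from place 4 to place 2 in hTERT RPE-1. In MCF10A SLC3A2 took place 3 with miR-708 by the transcript used here (1.885 kb) and kept place 4 by its longest transcript (2.334 kb). The tables of the lines were scaled separately, so no level was tested between them.

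**Figure D5:**
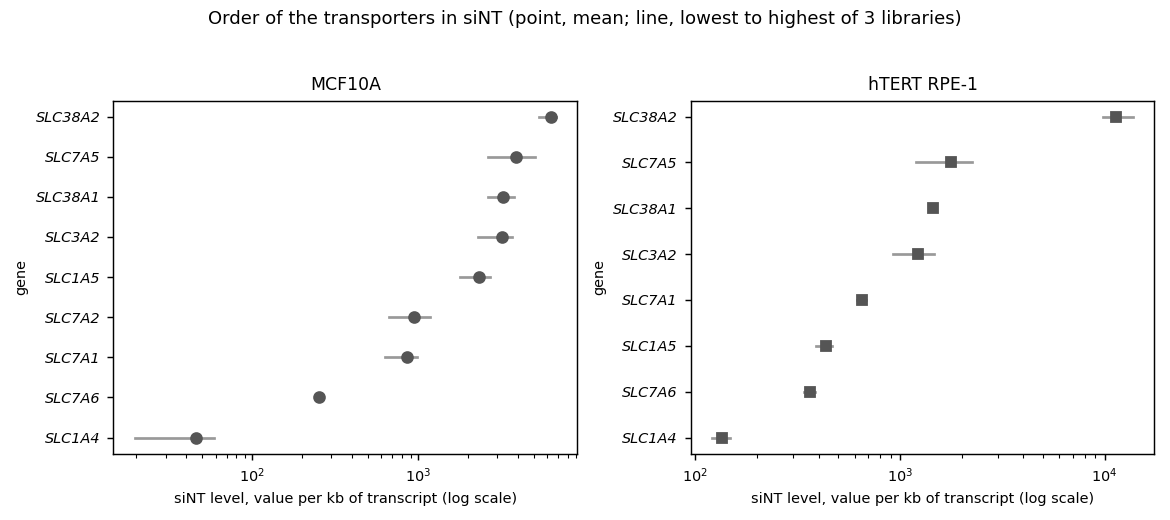
Level of each transporter gene with siNT (x axis, value per kilobase of transcript on a log scale), in MCF10A on the left and hTERT RPE-1 on the right, as the mean (point) and the lowest to the highest of 3 libraries (line). SLC38A2 is highest and SLC1A4 lowest in both lines, and SLC7A5 comes after SLC38A2 in both.

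Across the 9 libraries of a line, log2 values of SLC7A5 ran with those of SLC38A1 (Pearson r = 0.98 in MCF10A and 0.82 in hTERT RPE-1) and SLC7A1 (0.95 and 0.84), and with SLC3A2 in MCF10A (0.83) but against it in hTERT RPE-1 (-0.72). These points share libraries and group differences, so they are descriptions without a test. Of 10233 genes tested in both lines with a mean of at least 100, those most like SLC7A5, by the lower of the coefficients of the lines over 9 libraries each, were ARHGAP23 (0.960), CELSR1 (0.935), FBLIM1 (0.935), TOM1L2 (0.935) and STK38L (0.933). With ranks in place of values 1 of these 5 stayed among the first 5.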

How the data were processed

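Polyadenylated RNA of 18 libraries was sequenced in pairs. Per the study's methods and the submitters' processing notes, adapters were trimmed, reads aligned to hg38 with HISAT2 2.1.0 and assigned to RefSeq transcripts by expectation maximisation in Partek Flow. The deposited signal values are estimated counts, which the authors scaled in each library by its size factor from the median of ratios, as DESeq2 does. Of low values, 79.1% to 83.1% were whole multiples of 1 read (tolerance 0.02), so reads were not recovered and no count model was used. The strand setting of the counting is not given in the sources used here. Columns of per-sample values left out numbered 0. The authors' comparison columns (p-values, ratios, fold changes) were not used, and from those tables only gene positions were taken, as deposited.

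The fit was limma 3.58.1 (R 4.3.3) on log2(value + 1), 1 group-means model per line with all 9 libraries, a trended empirical Bayes spread and Benjamini-Hochberg adjustment over all genes tested (14726 in MCF10A, 14527 in hTERT RPE-1), after the filter of 10 in 3 libraries. Fold changes on this scale understate the change of low genes. Line differences used the standard errors of both fits with Welch-Satterthwaite degrees of freedom. The script was tested on simulated data. Python 3.11.15 with pandas 2.3.3, numpy 2.4.6, scipy 1.17.1 and matplotlib 3.10.9 did the rest. Sites came from GENCODE 44 on hg38, miRNA and promoter sequences from RefSeq (GRCh38.p14).

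Alternatives were the replicate block, scaling to the library total or upper quartile, pseudocounts of 0.5 and 10, no filter, no trend, the 2 groups alone and each library left out. Replicate numbers come from the labels. Same-numbered libraries deviated together, with every correlation over 0.1, for miR-28 (0.26, 0.18 and 0.11) and miR-708 (0.30, 0.11 and 0.16) against siNT in MCF10A and for miR-708 against miR-28 in hTERT RPE-1 (0.28, 0.20 and 0.13), so numbers were taken to pair those. Different-numbered libraries of these comparisons gave -0.27 to 0.11. The highest was miR-28 replicate 9 against siNT replicate 8 in MCF10A (0.110), beside 0.111 against siNT replicate 9. The cut-off of 0.1 therefore does not set every same-numbered pair apart. Nothing further says how replicates were separated, so p-values measure the spread between these libraries.

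The members and lists were chosen with earlier results of these data known. Named genes were all members, list genes called the same way in all 4 comparisons with siNT, up to 4 more per list by mean log2 fold change, the 5 genes most like SLC7A5, RPS28 and SLC7A5 pseudogenes. SLC7A11, SLC6A9 and ATF4 lie outside this rule and were named after their values were seen, as were markers of libraries that stood apart.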

Additional observations from a re-analysis of the deposited data

Results flagged for a closer look

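5 differences between the lines were picked out because the test of the difference itself (limma fits, hTERT RPE-1 minus MCF10A, adjusted over all genes tested in both) passed. SLC3A2 differed by 1.574 with miR-28 and by 2.018 with miR-708 on the log2 scale, its fold change against siNT and not its level being higher in hTERT RPE-1. Its mimic and siNT libraries did not overlap, except for miR-708 in MCF10A. SLC1A5 differed by 1.166 with miR-28 and by 1.557 with miR-708, from a fall in MCF10A. SLC1A4 differed by 1.141 with miR-28, and that call was lost with any 1 of 12 of the 18 libraries left out.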

How the results depend on the processing

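Of 747 values recomputed with 1 library left out, 685 kept direction and side of the threshold, 42 lost a call, 14 gained one and 6 changed sign, and of 536 under other settings the numbers were 504, 15, 13 and 4. Calls with a library left out ranged, for the members, from 3 to 8 (MCF10A, miR-708), 2 to 4 (hTERT RPE-1, miR-28) and 2 to 6 (hTERT RPE-1, miR-708 against miR-28); for other transporters, from 6 to 13 (MCF10A, miR-708) and 3 to 6 (hTERT RPE-1, miR-708 against miR-28); for the mTORC1 list, from 2 to 8, 8 to 16 and 0 to 1 in MCF10A (miR-28, miR-708, miR-708 against miR-28) and 1 to 12 (hTERT RPE-1, miR-708 against miR-28); for regulators, from 2 to 5 (MCF10A, miR-28) and 1 to 2 (miR-708 against miR-28, in either line). Library total scaling gave 10 mTORC1 genes and 2 regulators with miR-28 in MCF10A, 8 other transporters and 13 mTORC1 genes for miR-708 against miR-28 in hTERT RPE-1, and 4 members in the line difference with miR-708. Without a trend the mTORC1 list had 3 calls (MCF10A, miR-28) and 4 (hTERT RPE-1, miR-708 against miR-28), and the 2 groups alone gave 4 for the latter. The cause of these shifts was not tested. In MCF10A, miR-708 against miR-28, the same-numbered libraries correlated by 0.12, 0.02 and 0.18, and the 0.02 lies under the 0.1 used for pairing. Both mimics were taken as paired with siNT by number there, so these libraries share the numbers as well. For this comparison the replicate block gave 1 member (SLC7A2, limma, adjusted p = 0.00157), 2 other transporters, 1 mTORC1 gene and 2 regulators. Beyond those given beside the results, the block changed no member call. Sign changes of the log2 fold change under library total scaling were SLC38A1 (0.003707) and SLC1A5 (0.01577) with miR-28 in hTERT RPE-1, SLC7A6 for miR-708 against miR-28 there (0.03278) and SLC38A2 in the line difference with miR-708 (0.006815). With a library left out, SLC7A2 with miR-28 in MCF10A ran from -0.202 to 0.4015, SLC38A1 from -0.1892 to 0.01003 and SLC1A5 from -0.1858 to 0.03056 for miR-708 against miR-28 there, and SLC1A5 with miR-28 in hTERT RPE-1 from -0.1639 to 0.08128. None of these was called. Depth limits no member, all of which lay far above 3 reads.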
